A study of Mus musculus with 12 samples.

Results

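The 34 genes described here encode the enzymes that build and recycle nucleotides in the mouse. They were taken by name from the read counts of 24062 gene symbols in 12 libraries, 1 per mouse, and all 34 were found and had enough reads to be tested in every comparison. By role they fall into 11 branches, which are PRPP synthesis (2 genes), purine synthesis to IMP (6), IMP to AMP and GMP (4), pyrimidine synthesis to UMP (3), CTP synthesis (2), uridine and cytidine salvage (2), ribonucleotide reductase (3), thymidylate supply (4), deoxynucleoside kinases (3), purine salvage with adenosine deamination (3) and nucleoside diphosphate kinases (2).

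A cell makes purines on the activated sugar phosphate PRPP, and it attaches pyrimidine rings to PRPP after they are closed. Ribonucleotide reductase turns ribonucleotides into the deoxynucleotides that DNA synthesis uses, and the salvage kinases and phosphoribosyltransferases return free bases and nucleosides to the pools. Many of these genes are known targets of the transcription factor MYC, and several rise in cells that enter S phase, while the adult liver is known for both a high output of nucleotides and a strong breakdown of uracil and purines.

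The study asked how a diet without tryptophan (Trp) affects liver tumors driven by MYC. Livers came from male FVB mice carrying LAP-tTA and TRE-MYC, in which hepatocytes express human MYC once doxycycline is withdrawn (MYC-ON livers), 45 days old and on the control diet (mice 101, 102 and 103) or the No-Trp diet (mice 105, 107 and 108) for 21 days. Xenografts came from HCC53N, a mouse liver cancer line without p53 and with mutant NRAS, whose labels also describe it as MYC-ON, implanted subcutaneously in female NOD SCID hosts on the control diet (mice 40, 41 and 43) or the No-Trp diet (mice 35, 36 and 37) for 21 days; the age of the hosts was not given. Every liver used here carried the transgene, which the LAP promoter restricts to hepatocytes and whose human reads were not counted, and every xenograft came from the same cell line, so no liver or tumor without a driver was compared here. The NOD SCID host lacks T and B cells, keeps other immune cells and adds mouse stroma whose reads cannot be told from those of the mouse tumor cells.

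Levels are given as CPM, the read count of a gene relative to the size of its library, with library sizes scaled by TMM over the 12 libraries, and errors of levels are SDs over 3 mice. Between 14660963 and 26085349 reads were counted on genes per library, and every member held at least 67 reads in every library. A log2 fold change is followed by its standard error (SE), and an adjusted p is always that of edgeR's two-sided quasi-likelihood test after Benjamini-Hochberg adjustment across the genes of that fit. To be called, a gene needed an adjusted p no higher than 0.05 and a log2 fold change of 1 or more in either direction. The files of livers 101 and 108 and of control xenografts 41 and 43 carry a resubmission mark, and in liver 101 12.1% of the gene reads lay on Rn45s, a ribosomal RNA gene, against 2.22% or less in the other libraries.

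Hepatocyte genes marked the livers as labelled. The summed level of 10 hepatocyte markers was 9582.4 to 39391.5 CPM in the control livers and 50617.7 to 123120.1 CPM in the No-Trp livers, and 325 to 858 CPM in the 6 xenografts, where none of the 10 was at 3 reads or fewer throughout a group. Cholangiocyte markers summed to 2944.6 to 10798.1 CPM in the xenografts and to 86.7 to 167 CPM in the livers. Most of the xenograft sum was Spp1, with a mean of 6835.0 CPM in control xenografts and 82.2 CPM in control livers. In the same groups Krt19 held 418 and 11 CPM, Sox9 141 and 4.16 CPM, and Krt7 42.3 and 8.02 CPM. Epcam overlapped between them, at 11.2 ± 7.58 and 8.56 ± 4.53 CPM. Trp53, which the label says the xenograft cells lack, held 17.5 to 22.8 CPM in the xenografts and 46.7 to 133 CPM in the livers, and since the deleted part was not given its level does not check that label.

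In the MYC-ON livers 17 of the 34 members were called lower on the No-Trp diet by edgeR and none was called higher. At an unadjusted p under 0.05, 23 were lower and 1 higher, where 20.6% of all genes were lower. DESeq2 called 19 lower and 0 higher. Over all 14122 genes tested, 7.27% were called lower and 9.28% higher, while 50% of the members were called lower. At an adjusted p of at most 0.05 alone, 20 members were lower and 1, the mitochondrial thymidine kinase gene Tk2, was higher, where the shares over all genes were 12% and 13.3%. The median log2 fold change of the members was -1.05, and that of all genes was 0.00 in size. In 25 members the mice of both diets did not overlap (73.5%, against 48.6% of all genes). Since these are RNA measurements of whole tissue, fewer cells of a type and less RNA per cell cannot be told apart.

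Each of the 17 members was below every control liver in all 3 No-Trp livers, and No-Trp liver 107 was the lowest in all 17. These calls depended on which mouse was left out, and so did those over all genes. Without control liver 101 or control liver 103 none of the 17 kept an adjusted p of at most 0.05 (lowest 0.0543 and 0.086), and without No-Trp liver 105 only Dck did, at 0.042. Over all genes the number called lower dropped from 1026 to 116 without liver 101, 1 without liver 103 and 70 without liver 105. In those 3 fits the log2 fold changes of the 17 stayed between -2.26 and -0.90, every unadjusted p was under 0.05, and 20, 20 and 21 of the 34 members were lower at an unadjusted p under 0.05, where 15.6% to 17.1% of all genes were. Without livers 102, 107 and 108 in turn, 18, 13 and 16 members were called lower, beside 8.66%, 4.25% and 6.5% of all genes. The 4 livers without a resubmission mark gave no call in any of 14198 genes (adjusted p 0.0923 to 0.118 for the 17). The log2 fold changes of the 17 were then -2.62 to -1.14. Marked No-Trp liver 108 was below marked control liver 101 in 31 of the 34 members, with a median log2 ratio of -0.77. For the 17 this order already followed from the lack of overlap between the diets, and their log2 ratios were -1.63 to -0.83. The marked pair is 1 mouse per diet, and its ratios were not taken over all genes. A shift of all genes between these libraries can therefore not be told apart from one of the members.

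In the HCC53N xenografts no member was called in either direction by edgeR, where 0.116% of 14704 genes were called lower and 0.245% higher. The members had a median log2 fold change of 0.14, with 22 above 0 and 12 below. At an unadjusted p under 0.05, 3 were lower and 8 higher, where 2483 of all 14704 genes passed in either direction. DESeq2 also called no member at both thresholds, while Cad passed its adjusted p alone. The groups did not overlap in 10 members (29.4%, against 22.6% of all genes). Both marked xenografts were on the control diet, so within the marked files the diets could not be compared.

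The diet differences of both models were compared directly in a joint fit of the 12 libraries, whose interaction term is the diet difference in xenografts minus that in livers and was called on the adjusted p alone. The comparisons of diets and of models share libraries and are not independent of each other. It was called above 0 in 18 members and below 0 in 1, Tk2, where 8.25% of 15472 genes were called above and 7.39% below. Called or not, it was above 0 in 30 members and below 0 in 4. Its median was 1.28 over the members and 0.03 over all genes. Leaving out each library in turn gave 11 to 21 members called above 0 and 492 to 1388 of all genes, the lowest member count without control liver 103 and without No-Trp xenograft 36, and Tk2 lost its call in 8 of these 12 fits.

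**Figure D1:**
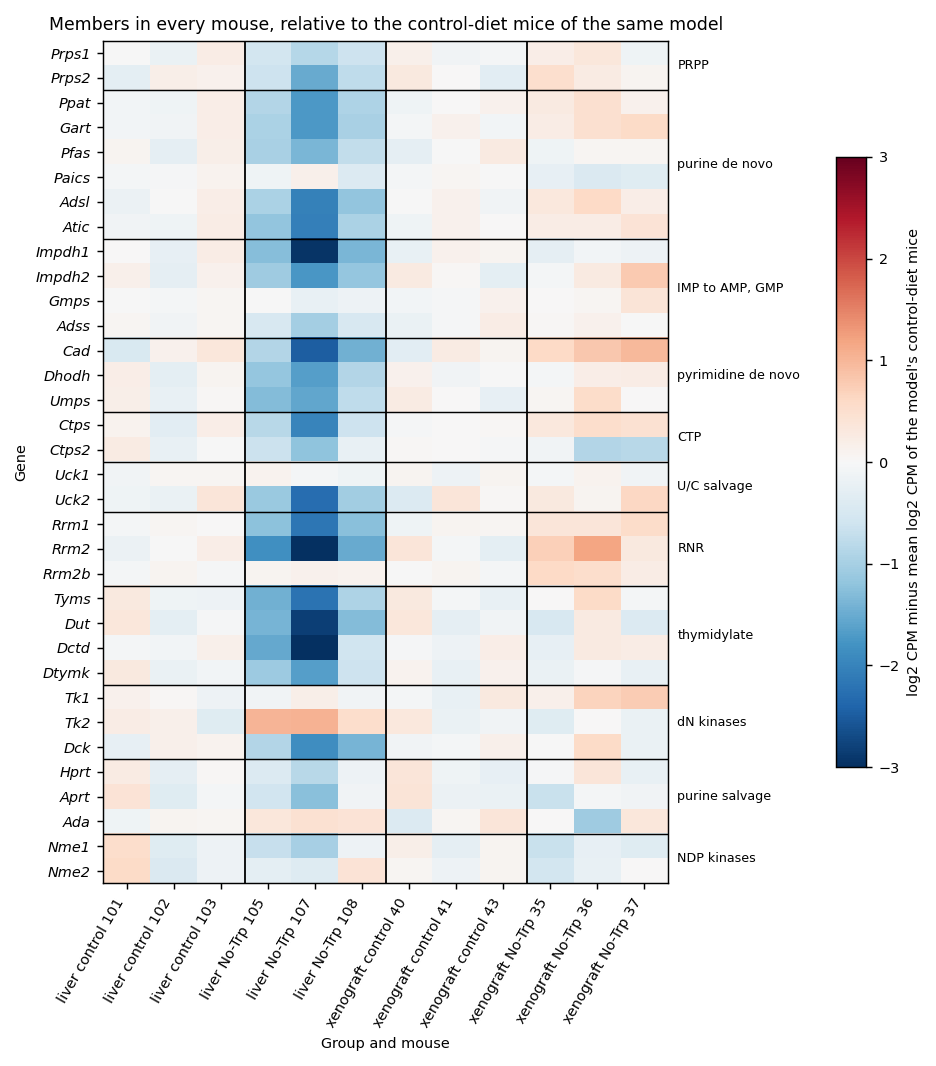
Color gives log2 CPM of each member (rows, by branch) in each mouse (columns) minus the mean of the control-diet mice of the same model, and saturates at 3 in either direction. The No-Trp livers are blue in most rows, deepest in mouse 107, with Paics, Gmps, Uck1, Rrm2b, Tk1, Tk2, Ada and Nme2 standing apart. The xenografts show no such block.

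**Figure D2:**
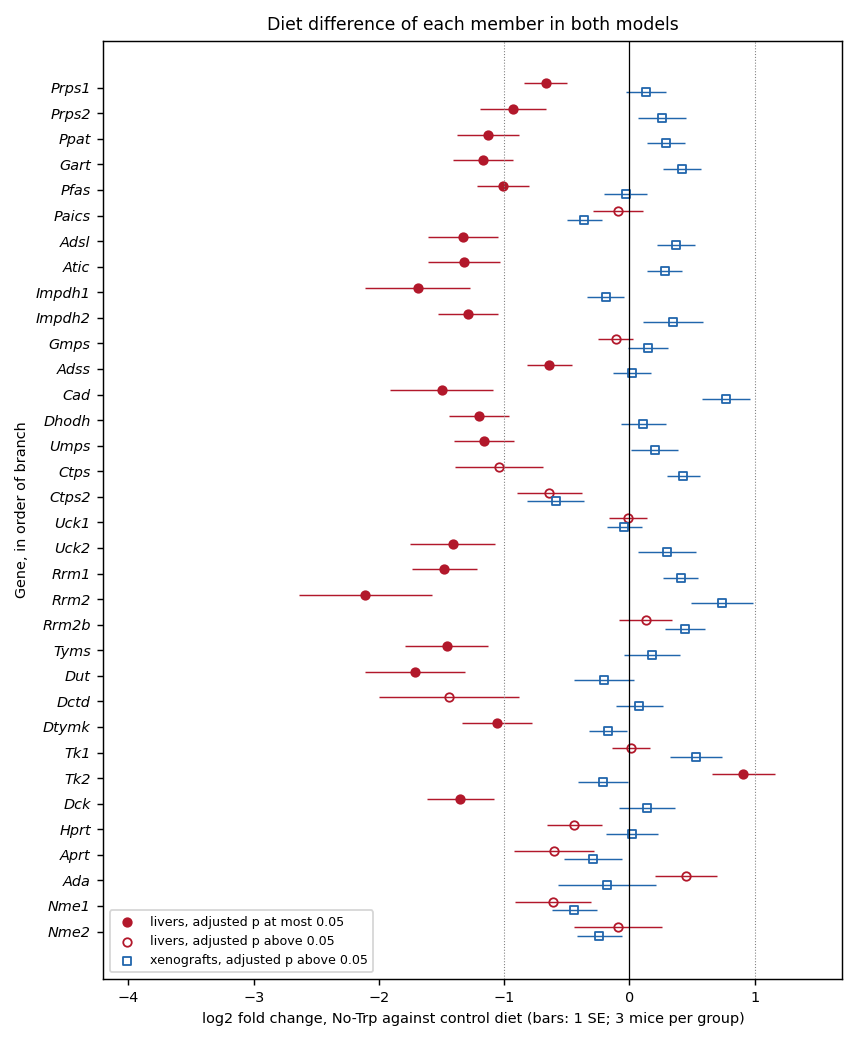
Points give the log2 fold change of each member between the No-Trp and the control diet with 1 SE, for livers (circles) and xenografts (squares), and filled points passed an adjusted p of at most 0.05. The 20 filled liver points left of 0 lie between -2.11 and -0.64, Tk2 is the filled point at 0.91, and every xenograft point is open and lies between -0.59 and 0.77.

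The 250 bases before the transcription start are shown for some of the members called lower in the livers. These windows were chosen because they carry letters bound by factors of growth and the cell cycle. They are RefSeq sequences on GRCm38.p6, written 5′ to 3′ on the strand of the gene, and the capitals mark an E-box (CACGTG, the letters that MYC with its partner MAX is known to prefer) or a CCAAT box (CCAAT, or ATTGG where it lies on the other strand, known to be bound by NF-Y). The windows are those of Rrm2 at chr12:24708004-24708253 (plus strand), Rrm1 at chr7:102441445-102441694 (plus), Tyms at chr5:30073626-30073875 (minus), Atic at chr1:71556906-71557155 (plus) and Dtymk at chr1:93801935-93802184 (minus).
Rrm2: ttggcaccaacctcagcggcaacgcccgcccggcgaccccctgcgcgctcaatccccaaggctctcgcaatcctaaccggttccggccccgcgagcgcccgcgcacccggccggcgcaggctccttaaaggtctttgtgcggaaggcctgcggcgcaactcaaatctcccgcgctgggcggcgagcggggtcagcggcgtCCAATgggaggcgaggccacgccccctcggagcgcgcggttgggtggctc
Rrm1: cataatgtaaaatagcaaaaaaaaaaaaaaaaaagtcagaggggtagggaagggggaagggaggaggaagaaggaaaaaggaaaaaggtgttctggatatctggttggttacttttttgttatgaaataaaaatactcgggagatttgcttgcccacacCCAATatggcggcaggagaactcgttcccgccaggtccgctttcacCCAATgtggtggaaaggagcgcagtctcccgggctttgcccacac
Tyms: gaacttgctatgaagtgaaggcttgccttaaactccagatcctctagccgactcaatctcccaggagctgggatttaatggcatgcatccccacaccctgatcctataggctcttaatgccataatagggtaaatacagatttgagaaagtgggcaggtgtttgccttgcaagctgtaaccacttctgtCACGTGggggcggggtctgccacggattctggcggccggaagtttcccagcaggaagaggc
Atic: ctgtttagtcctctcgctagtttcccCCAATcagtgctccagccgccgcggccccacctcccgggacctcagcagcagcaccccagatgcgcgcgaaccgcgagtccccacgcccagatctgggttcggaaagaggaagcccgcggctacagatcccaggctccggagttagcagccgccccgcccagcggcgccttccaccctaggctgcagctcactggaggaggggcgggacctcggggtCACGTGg
Dtymk: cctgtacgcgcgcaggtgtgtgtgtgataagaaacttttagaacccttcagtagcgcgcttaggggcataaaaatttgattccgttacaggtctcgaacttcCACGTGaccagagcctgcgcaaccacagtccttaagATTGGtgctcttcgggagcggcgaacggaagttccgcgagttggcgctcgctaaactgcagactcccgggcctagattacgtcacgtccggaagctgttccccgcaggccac

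Of the 34 members, 31 had such a window in RefSeq, 40 windows in all, and Dhodh, Pfas and Rrm2b had none. The E-box stood in 17.5% of the 40 windows, in 6 members (Atic, Dtymk, Impdh2, Nme1, Paics and Tyms), and in 6.02% of all 32817 windows of that length. The CCAAT box stood in 27.5% of the members' windows, in 10 members, and in 33.8% of all windows. The E2F letters TTTCCCGC, TTTCGCGC, TTTGCCGC and TTTGGCGC were searched on both strands as well and stood in 2.5% of the members' windows, those of Ppat alone, and in 1.86% of all. Of the 6 members with an E-box, Atic, Dtymk, Impdh2 and Tyms were called lower in the No-Trp livers, and Paics (-0.09) and Nme1 (-0.61) were not. Adsl, Impdh1, Cad, Umps, Uck2, Dut and Dck were also called lower there and carried none of the letters searched. A match of letters is a description of the sequence and not a measured site.

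Both PRPP synthetase genes were lower in the No-Trp livers at the adjusted p but under the fold threshold. Prps1 held 124, 108 and 145 CPM in the control livers and 85.3, 68.8 and 80.8 CPM in the No-Trp livers (log2 fold change -0.67, SE 0.17, adjusted p = 0.0332). Prps2, its paralog, held 55.7, 76.8 and 73.8 CPM against 43.9, 23.4 and 39.9 CPM (-0.93, SE 0.26, adjusted p = 0.0407). For neither gene did the liver groups overlap. In the xenografts Prps1 held 62, 52 and 53.7 CPM on the control diet and 63.5, 70.4 and 51.4 CPM on the No-Trp diet, and Prps2 held 53.9, 44 and 34.9 CPM against 62, 51.8 and 46.5 CPM. These xenograft groups overlapped (adjusted p = 0.72 for Prps1 and 0.53 for Prps2). The interaction term, with its sign, was 0.83 (SE 0.23, adjusted p = 0.0349) for Prps1 and 1.22 (SE 0.34, adjusted p = 0.0356) for Prps2, and the differences between the models below are the same term. Of the regulatory subunits that bind PRPP synthetase, Prpsap2 was lower in the No-Trp livers (-0.93, adjusted p = 0.0361) and Prpsap1 higher (0.47, adjusted p = 0.0493), both under the fold threshold.

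Of the 6 genes of purine synthesis from PRPP to IMP, 5 fell in the No-Trp livers and Paics was not called. Adsl, adenylosuccinate lyase, which acts in this route and again on the way to AMP, held 157, 177 and 204 CPM in the control livers and 91.1, 43.2 and 78.3 CPM in the No-Trp livers (log2 fold change -1.33, SE 0.28, adjusted p = 0.0236). Gart, which encodes the multifunctional protein with glycinamide ribonucleotide transformylase activity, held 288, 283 and 348 CPM against 157, 91.9 and 155 CPM (-1.17, SE 0.24, adjusted p = 0.0232). The No-Trp livers lay well below the controls in both genes. In the xenografts the order was turned, with Adsl at 61.3, 67 and 57.2 CPM on the control diet and 76.8, 93.5 and 70.8 CPM on the No-Trp diet (0.37, SE 0.15, adjusted p = 0.276). Gart held 90, 103 and 88.9 CPM against 109, 132 and 139 CPM there (0.42, SE 0.15, adjusted p = 0.223). Neither gene's xenograft groups overlapped, and neither passed the test. The difference between the models was 1.72 (SE 0.33, adjusted p = 0.0103) for Adsl and 1.61 (SE 0.28, adjusted p = 0.00819) for Gart, and both kept an adjusted p of at most 0.05 without any 1 of the 12 libraries.

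Ppat, the amidotransferase of the committed step, fell from 142 ± 17.3 to 64.1 ± 18.9 CPM in the livers (-1.13, SE 0.25, adjusted p = 0.0244). Pfas, the formylglycinamidine synthase, fell from 120 ± 19.1 to 58.9 ± 12.8 CPM (-1.01, SE 0.21, adjusted p = 0.0236), and Atic, which closes the ring to IMP, from 308 ± 44.8 to 122 ± 43.3 CPM (-1.32, SE 0.29, adjusted p = 0.0251). Paics, the carboxylase and succinocarboxamide synthetase between Pfas and Adsl in the route, stood apart from its branch. It held 307, 314 and 345 CPM in the control livers and 296, 356 and 242 CPM in the No-Trp livers (-0.09, SE 0.20, adjusted p = 0.751), so the groups overlapped and mouse 107, lowest in the other 5 genes, was the highest of the 3. In the xenografts Paics held 280, 306 and 288 CPM against 244, 216 and 227 CPM, with no overlap and an adjusted p of 0.241. Ppat and Paics lie head to head on chromosome 5 (GRCm38 chr5:76913249-76951578 on the minus strand and chr5:76951307-76967509 on the plus strand) and share 272 exonic bases, where reads of both cannot be told apart without a strand setting, which was not given.

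The conversion of IMP to GMP and AMP was lower in the livers in 3 of its 4 genes, of which 2 were called. Impdh1, an IMP dehydrogenase, held 146, 124 and 172 CPM in the control livers and 60.5, 18.8 and 56.7 CPM in the No-Trp livers (-1.69, SE 0.42, adjusted p = 0.031). Impdh2, the more abundant isozyme, held 400, 299 and 391 CPM against 172, 107 and 162 CPM (-1.29, SE 0.24, adjusted p = 0.0196). All No-Trp livers were below all control livers in both. Impdh1 held 59.9, 77.5 and 74.8 CPM in the control xenografts and 57.8, 66.4 and 63.1 CPM in the No-Trp xenografts (adjusted p = 0.567). Impdh2 held 164, 141 and 112 CPM against 132, 166 and 235 CPM there (adjusted p = 0.499), and the groups of both overlapped. The models differed by 1.53 for Impdh1 (SE 0.46, adjusted p = 0.0454) and by 1.66 for Impdh2 (SE 0.35, adjusted p = 0.013). Adss, which starts the arm to AMP, passed the adjusted p alone in the livers (-0.64, SE 0.18, adjusted p = 0.0435), and Gmps, which finishes GMP, held 130 ± 5.61 and 119 ± 8.31 CPM in control and No-Trp livers (-0.11, SE 0.14, adjusted p = 0.563).

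All 3 genes of pyrimidine synthesis to UMP fell in the No-Trp livers. Cad, the multifunctional enzyme that opens the route, held 210, 316 and 368 CPM in the control livers and 156, 52.1 and 106 CPM in the No-Trp livers (-1.50, SE 0.41, adjusted p = 0.0376). In the xenografts it held 73.7, 109 and 98 CPM on the control diet and 140, 162 and 182 CPM on the No-Trp diet (0.77, SE 0.19, adjusted p = 0.113). Cad thus ran in opposite directions without overlap in either model, with the xenograft difference short of the threshold in edgeR, and the difference between the models was 2.30 (SE 0.47, adjusted p = 0.0124). With resubmission as a covariate the liver difference of Cad was -1.46 and its adjusted p was 0.0545. Dhodh, the mitochondrial dehydrogenase of dihydroorotate, fell from 123 ± 21.2 to 53 ± 13.9 CPM in the livers (-1.20, SE 0.24, adjusted p = 0.0213) and held 19.7 ± 1.56 and 21.5 ± 2.28 CPM in the xenografts (adjusted p = 0.791). Umps, which ends the route at UMP, fell from 233 ± 32 to 103 ± 29.8 CPM (-1.16, SE 0.24, adjusted p = 0.0224) and held 68.4 ± 11.2 and 79.2 ± 17.2 CPM in the xenografts (adjusted p = 0.639). The models differed by 1.34 (SE 0.29, adjusted p = 0.0138) in Dhodh and by 1.39 (SE 0.32, adjusted p = 0.0177) in Umps.

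Neither CTP synthetase gene was called in either model. Ctps held 138, 103 and 147 CPM in the control livers and 71.3, 31.9 and 83.8 CPM in the No-Trp livers (-1.04, SE 0.35, adjusted p = 0.0648), and 58.6, 60.6 and 61.9 CPM against 75.6, 86.8 and 82.7 CPM in the xenografts (0.43, SE 0.13, adjusted p = 0.175). Its groups overlapped in neither model, and the models differed by 1.49 (SE 0.39, adjusted p = 0.0266). Ctps2, its paralog, held 114, 82.8 and 95.5 CPM against 61.7, 41.8 and 82.9 CPM in the livers (-0.64, SE 0.26, adjusted p = 0.109), with an overlap of 1 mouse, and 27.1, 26.7 and 26 CPM against 24.7, 14.2 and 14.6 CPM in the xenografts (-0.59, SE 0.23, adjusted p = 0.259). The Ctps2 difference between the models was 0.08 (SE 0.37, adjusted p = 0.915). In uridine and cytidine salvage, Uck2, the kinase isozyme known to be high in tumors, held 79.4, 75.6 and 113 CPM in the control livers and fell to 40.2, 17.7 and 42 CPM (-1.41, SE 0.34, adjusted p = 0.0299). In the xenografts Uck2 held 28.3, 48.8 and 38.6 CPM against 46.1, 39.8 and 57.9 CPM (adjusted p = 0.544), and the models differed by 1.73 (SE 0.44, adjusted p = 0.0247). Uck1, the broadly expressed isozyme, held 40.6 ± 2.75 and 39.7 ± 3.44 CPM in the livers (-0.01, SE 0.15, adjusted p = 0.952) and 52.3 ± 5.03 and 51.4 ± 3.85 CPM in the xenografts (-0.04, SE 0.14, adjusted p = 0.924).

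Ribonucleotide reductase held the largest liver difference of all members. Rrm2, the small subunit made in S phase (chr12:24708241-24714146), held 204, 227 and 264 CPM in the control livers and 64.1, 16 and 80 CPM in the No-Trp livers (-2.11, SE 0.53, adjusted p = 0.0331). Rrm1, the large subunit (chr7:102441695-102469771), held 173, 190 and 184 CPM against 77.5, 40 and 76.5 CPM (-1.48, SE 0.26, adjusted p = 0.0187). Both genes lay lower in every No-Trp liver, and mouse 107 was the lowest. In the xenografts Rrm2 held 91.8, 67.3 and 57.5 CPM on the control diet and 117, 162 and 86.8 CPM on the No-Trp diet (0.74, SE 0.25, adjusted p = 0.206), with an overlap. Rrm1 held 82.8, 97.6 and 94.5 CPM against 118, 118 and 133 CPM there without overlap (0.41, SE 0.14, adjusted p = 0.205). The models differed by 2.88 (SE 0.64, adjusted p = 0.0168) in Rrm2 and by 1.92 (SE 0.30, adjusted p = 0.00593) in Rrm1, the smallest interaction p of the members. Rrm2b, the alternative small subunit that p53 is known to induce, held 7.04, 7.89 and 7.23 CPM in the control livers and 7.89, 8.12 and 8 CPM in the No-Trp livers (0.13, SE 0.21, adjusted p = 0.663, and -0.17 with library totals in place of TMM). In the xenografts, whose cells are described as lacking p53, it held 21.8, 23.3 and 21.1 CPM against 33.4, 31.9 and 25.8 CPM (0.44, SE 0.16, adjusted p = 0.232).

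Thymidylate supply fell in 3 of its 4 genes in the livers. Dut, the dUTPase that keeps uracil out of DNA and provides dUMP, held 164, 107 and 126 CPM in the control livers and 49.4, 18 and 52.8 CPM in the No-Trp livers (-1.71, SE 0.40, adjusted p = 0.0281). In the xenografts it held 96.5, 63 and 70.6 CPM against 53.7, 90.6 and 57.1 CPM (adjusted p = 0.711), so the groups overlapped, and the difference between the models missed the threshold (1.53, SE 0.51, adjusted p = 0.0594). Tyms, thymidylate synthase, fell from 59 ± 10.8 to 21.3 ± 9.19 CPM in the livers (-1.46, SE 0.33, adjusted p = 0.0258) and held 33.6 ± 6.42 and 38.4 ± 10 CPM in the xenografts (adjusted p = 0.718), a difference between the models of 1.67 (SE 0.42, adjusted p = 0.0247). Dtymk, thymidylate kinase, fell from 110 ± 21.4 to 52.1 ± 18.5 CPM (-1.06, SE 0.28, adjusted p = 0.0356). Dctd, dCMP deaminase, ranged widely in the No-Trp livers, at 17.6, 5.54 and 34.4 CPM against 49.5, 49.1 and 58 CPM in the controls, and was not called (-1.44, SE 0.56, adjusted p = 0.0991).

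The deoxynucleoside kinases went different ways in the livers. Dck, deoxycytidine kinase, held 35.1, 46.4 and 45 CPM on the control diet and fell to 22.4, 11.1 and 15.6 CPM (-1.35, SE 0.27, adjusted p = 0.0221). Tk2 held 15.1, 14.3 and 9.82 CPM in the control livers and 26.7, 27 and 18.8 CPM in the No-Trp livers (0.91, SE 0.25, adjusted p = 0.0376), above every control, and with library totals the difference was 0.62 and not past the threshold. Tk1, the cytosolic thymidine kinase of S phase, held 100, 94.7 and 82.6 CPM against 85.6, 104 and 86.2 CPM (0.01, SE 0.15, adjusted p = 0.974, and -0.29 with library totals), while 10 of 12 proliferation markers fell in the same livers. Tk1 shares 83 exonic bases with Afmid on the other strand, and Afmid, a gene of Trp breakdown, held 18.7, 59.9 and 17.4 CPM in the control livers and rose to 119, 229 and 82.7 CPM (2.19, SE 0.60, adjusted p = 0.04). The strand setting and overlap rule of the counting were not given. Whether reads of Afmid entered the Tk1 count was not tested. In the xenografts Tk1 held 44, 39.5 and 56.4 CPM on the control diet and 51.6, 73.3 and 78.3 CPM on the No-Trp diet (0.53, SE 0.21, adjusted p = 0.256), Dck held 29 ± 2.99 and 32.3 ± 9.6 CPM, and Tk2 held 27 ± 5.41 and 23.5 ± 3.08 CPM. The models differed by 1.52 (SE 0.37, adjusted p = 0.0219) in Dck and by -1.09 (SE 0.33, adjusted p = 0.0422) in Tk2.

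No gene of purine salvage or of the nucleoside diphosphate kinases was called in either model. Aprt, adenine phosphoribosyltransferase, held 265, 154 and 189 CPM in the control livers and 132, 82.9 and 183 CPM in the No-Trp livers (-0.60, SE 0.32, adjusted p = 0.202), and 364, 247 and 240 CPM against 175, 265 and 259 CPM in the xenografts (-0.29, SE 0.23, adjusted p = 0.548). Hprt, which salvages hypoxanthine and guanine, held 158 ± 28.2 and 115 ± 26.8 CPM in the livers (-0.44, SE 0.22, adjusted p = 0.18). Ada, adenosine deaminase, held 3.84 ± 0.367 and 5.2 ± 0.218 CPM in the livers (0.45, SE 0.25, adjusted p = 0.204). The diets overlapped in Aprt and Hprt, and in Ada all No-Trp livers were above all controls without passing the test. Nme1, a nucleoside diphosphate kinase, held 313, 169 and 194 CPM in the control livers and 135, 109 and 194 CPM in the No-Trp livers (-0.61, SE 0.30, adjusted p = 0.171). In the xenografts it held 224, 163 and 209 CPM against 124, 168 and 153 CPM (-0.44, SE 0.18, adjusted p = 0.271). Nme2, its neighbor and close paralog on chromosome 11, held 760 ± 285 and 708 ± 232 CPM in the livers (-0.09, SE 0.35, adjusted p = 0.869), and reads shared between these paralogs make both counts uncertain.

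The balance within pairs of isozymes was compared between the diets as a log2 ratio. With 3 mice per group the exact two-sided permutation test cannot give a p below 0.1, and over 14 tests the lowest adjusted value was 0.175, so none could pass. The log2 ratio of Rrm2 to Rrm2b was 4.76, 4.76 and 5.10 in the control livers and 2.94, 0.94 and 3.24 in the No-Trp livers, a difference of -2.50 (exact permutation p = 0.1) and the largest of the livers. That of Uck2 to Uck1 went from 1.11 ± 0.30 to -0.35 ± 0.69 (-1.45, exact permutation p = 0.1), and that of Tk1 to Tk2 went from 2.80 ± 0.18 to 1.92 ± 0.25 (-0.88, exact permutation p = 0.1). None of these 3 overlapped between the diets. Impdh2 to Impdh1 (0.54), Nme2 to Nme1 (0.53) and Ctps2 to Ctps (0.46) were higher in every No-Trp liver than in every control liver, and Prps2 to Prps1 overlapped (-0.30, the smallest difference, exact permutation p = 0.5).

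In the xenografts only the pairs Ctps2 to Ctps and Tk1 to Tk2 did not overlap between the diets. The log2 ratio of Ctps2 to Ctps was -1.10, -1.17 and -1.23 in the control mice and -1.59, -2.57 and -2.46 in the No-Trp mice, a difference of -1.04 (exact permutation p = 0.1), while in the livers the same ratio differed by 0.46. For Tk1 to Tk2 the xenograft difference was 0.72 (exact permutation p = 0.1), against -0.88 in the livers. The difference between the models in these ratios was not tested. The Prps2 to Prps1 ratio again differed least (0.15, exact permutation p = 0.5).

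**Figure D3:**
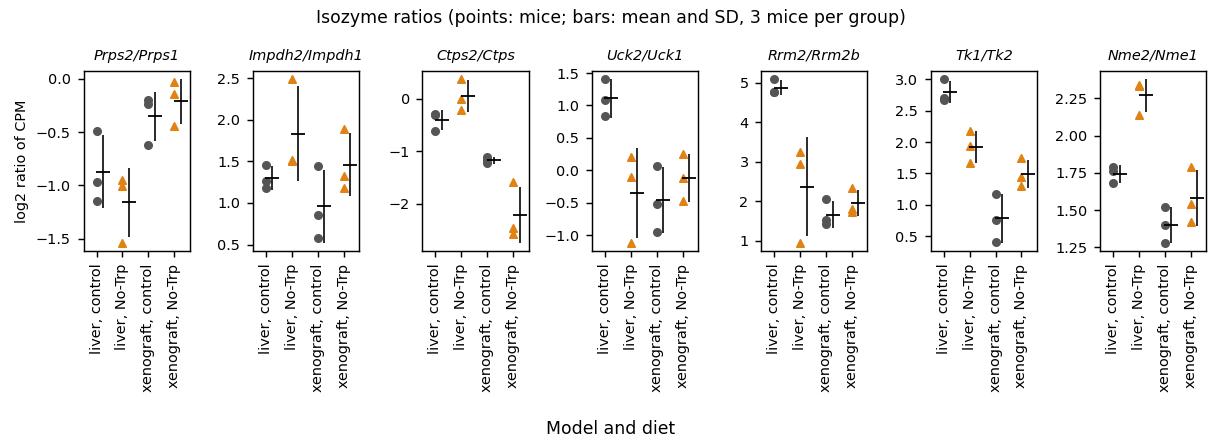
Each panel plots the log2 ratio of CPM of a pair of isozymes (vertical axis, its own scale) in 3 mice per group, with mean and SD beside the points. The Rrm2 to Rrm2b ratio drops from 4.87 ± 0.19 to 2.37 ± 1.25 in the livers and is 1.66 ± 0.34 and 1.95 ± 0.33 in the xenografts.

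On the control diet the xenografts held less RNA than the MYC-ON livers for most members. With the xenografts compared against the livers in the fit over all 12 libraries, 14 members were called lower and 3 higher, with a median of -0.81, where 20.2% of 15472 genes were called lower, 23.3% higher and the median was 0.01. The largest difference was in Dhodh (-2.64, SE 0.21, adjusted p = 7.11e-07), followed by Ctps2 (-1.87, SE 0.27, adjusted p = 8.40e-05), Umps (-1.77), Gart (-1.71) and Rrm2 (-1.68). Higher in the xenografts were Ada (1.72, SE 0.36, adjusted p = 0.00128), Rrm2b (1.58, SE 0.17, adjusted p = 1.01e-05) and Tk2 (1.05, SE 0.23, adjusted p = 0.00205). Tissue, driver, mouse strain, immune state and sex of the host, site and cell type all differ between the models and cannot be told apart here.

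On the No-Trp diet 2 members were called lower in the xenografts, Dhodh (-1.30, SE 0.20) and Ctps2 (-1.80, SE 0.27), and 3 higher, Rrm2b (1.92, SE 0.18), Rrm2 (1.19, SE 0.45) and Ada (1.11, SE 0.35). The median of the members was 0.26, and 19.1% of all genes were called lower and 24.5% higher, with a median of 0.15. With library totals 12 members were called higher and 1 lower, where 5797 of all genes were called higher instead of 3796 and their median was itself at 0.68. The member counts in the higher direction also moved with single livers, to 5 without No-Trp liver 105 and to 7 without No-Trp liver 108, with 3725 and 3785 of all genes called higher.

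**Figure D4:**
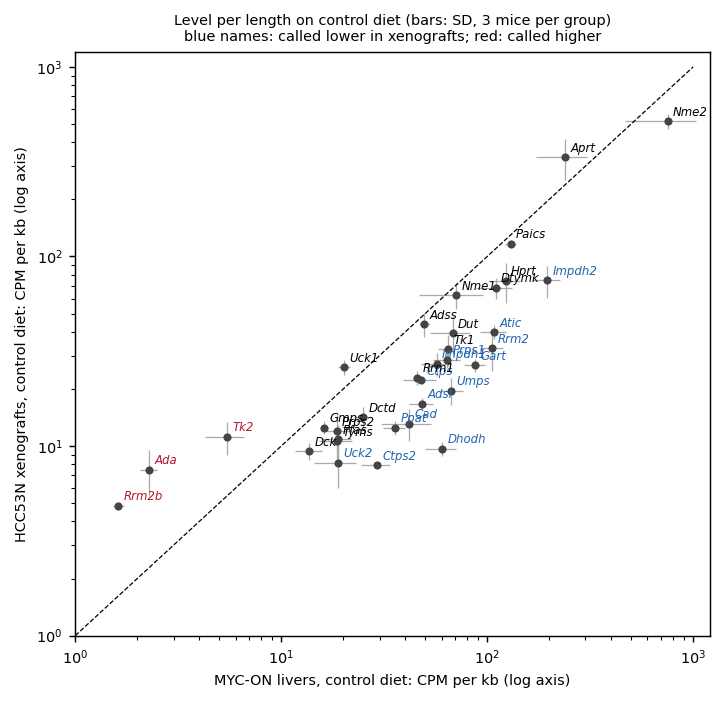
Mean CPM per kilobase of the principal transcript on the control diet in livers (horizontal, log axis) and xenografts (vertical, log axis), with SD over 3 mice; blue names were called lower in the xenografts and red names higher, and the dashed line marks equal levels. Most members lie below the line, and Rrm2b, Ada and Tk2 lie above it at the low end.

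Per length, the members spanned a wide range of levels. In the control livers the highest mean levels were those of Nme2 (751 ± 282 CPM per kb), Aprt (239 ± 66.9), Impdh2 (195 ± 30.1) and Paics (130 ± 8.29), and the lowest those of Tk2 (5.43 ± 1.18), Ada (2.28 ± 0.218) and Rrm2b (1.62 ± 0.0974). Nme2 stood above the next level by more than its SD, whereas Aprt and Impdh2 lay within 1 SD of Aprt. In the control xenografts Nme2 (517 ± 45.6), Aprt (334 ± 81.8) and Paics (117 ± 5.31) led, and Rrm2b (4.85 ± 0.246) was again last. Rrm2 ranked 8 of 34 in the control livers and 15 in the No-Trp livers, and 11 and 7 in the xenografts. Dhodh ranked 15 and 14 in the livers and 29 and 28 in the xenografts.

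The other genes of the pathway were counted by list, to be read against the 7.27% of all genes called lower and the 9.28% called higher in the livers. Of 10 genes of pyrimidine breakdown and deamination, 3 rose in the No-Trp livers and none fell, with a median log2 fold change of 1.72. Cda, cytidine deaminase, held 0.724, 0.676 and 0.759 CPM in the control livers and 6.52, 6.95 and 4.12 CPM in the No-Trp livers (3.03, SE 0.34, adjusted p = 0.0118). Dpyd, dihydropyrimidine dehydrogenase, which limits uracil breakdown, held 40.2, 156 and 53 CPM against 399, 794 and 340 CPM (2.65, SE 0.60, adjusted p = 0.0268). Upb1, which ends that route, held 103, 199 and 97.3 CPM against 276, 489 and 335 CPM (1.48, SE 0.35, adjusted p = 0.0278). Every No-Trp liver was above every control liver in these 3 genes. None of the 10 was called in the xenografts, where their median was -0.01, and of the 3 the models differed in Cda (-3.10, SE 0.55, adjusted p = 0.00836), with Dpyd (adjusted p = 0.0668) and Upb1 (adjusted p = 0.124) short of the threshold.

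Of 11 tested genes of purine breakdown none was called in the livers, and Adal passed the adjusted p alone (0.71, adjusted p = 0.05). Of these 11, 5 had an unadjusted p under 0.05 by edgeR, as did 5901 of all 14122 genes. Xdh, Uox, Pnp and Adal were higher and Ampd2 was lower. Among 9 nucleoside monophosphate kinases Ak3, the mitochondrial kinase that uses GTP, rose (1.17, SE 0.26, adjusted p = 0.0247). Of 19 further salvage, control and cofactor genes 2 rose and 1 fell. Adk, adenosine kinase, which is abundant in liver, went from 387, 405 and 333 CPM to 817, 1098.4 and 834 CPM (1.31, SE 0.22, adjusted p = 0.0181). Adssl1, the paralog of Adss best known from muscle, went from 16.6, 16.4 and 16.6 CPM to 44.3, 58.1 and 46.7 CPM (1.60, SE 0.17, adjusted p = 0.011), while Adss was lower. In the xenografts Adssl1 held 63.5, 83.2 and 113 CPM on the control diet and 54.2, 35.5 and 36.9 CPM on the No-Trp diet (-1.05, SE 0.25, adjusted p = 0.11), and the models differed by -2.62 (SE 0.32, adjusted p = 0.00259). Slc29a2, an equilibrative nucleoside transporter, fell from 43, 30.5 and 45.2 CPM to 17, 6.33 and 19.2 CPM in the livers (-1.47, SE 0.40, adjusted p = 0.0388). When each of the 6 livers was left out in turn, Cda and Adssl1 kept an adjusted p of at most 0.05 in 5 fits, Ak3, Adk and Slc29a2 in 3, and Dpyd and Upb1 in 2, all with the same sign.

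Markers of dividing cells moved with the members in the livers. In the No-Trp livers 10 of 12 proliferation markers fell (median -2.07), and their summed level was 1948.1 to 2159.8 CPM in the control livers and 198 to 665 CPM in the No-Trp livers, lowest where the members were lowest. In the xenografts the sum was 846 to 886 CPM in control mice and 1008.1 to 1293.6 CPM in No-Trp mice. All 12 markers were above 0 there without a call (median 0.57), while 22 of the 34 members were above 0 and 12 below (median 0.14). Of the 10 hepatocyte markers 4 rose in the No-Trp livers (median 1.73). The median was 1.72 over the genes of pyrimidine breakdown. It was 0.44 over the 11 tested genes of purine breakdown, of which none was called. Control liver 102 was already nearer to the No-Trp livers in the hepatocyte markers (1.38 above the control mean at the median). It was the lowest control in 21 of 34 members, but by little. Its median over the 34 members was -0.12, against -0.68 to -1.60 in the No-Trp livers. Over the proliferation markers it was -0.11, against -1.59 to -3.80. The part of proliferation and of the hepatocyte share in the members' differences was not tested.

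**Figure D5:**
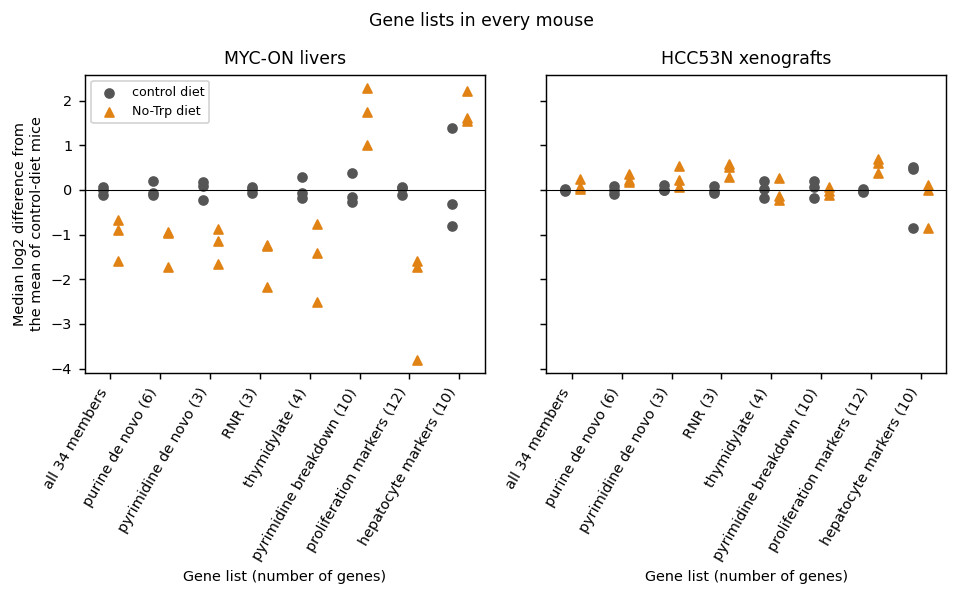
Points give, for each mouse, the median over a gene list of log2 CPM minus the mean of the control-diet mice of that model (vertical axis), with control diet as circles and No-Trp diet as triangles. In the livers the 34 members lie at -0.89, -1.60 and -0.68 in mice 105, 107 and 108 and the proliferation markers at -1.59, -3.80 and -1.73, while pyrimidine breakdown lies at 1.75, 2.28 and 1.01.

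Markers of other cell types were counted as well, against 7.27% of all genes called lower and 9.28% called higher in the livers. In the xenografts the shares over all genes were 0.116% and 0.245%. In the livers 4 of 6 tested erythroid markers fell (sum 59.4 to 580 CPM in control and 19.6 to 29.1 CPM in No-Trp livers, with the globin genes Hba-a1, Hba-a2, Hbb-bs and Hbb-bt at 3 reads or fewer in all 6 livers) and 1 of 5 neutrophil markers fell (sum 136 to 153 and 8 to 72.7 CPM). The macrophage markers summed to 431 to 583 and 350 to 662 CPM without a call, and none of 6 lymphocyte and 5 cholangiocyte markers was called there. Of the endothelial markers 1 of 6 rose in the livers, of the fibroblast and stellate cell markers 1 of 7 rose and 1 fell, and of 2 tested adipocyte markers 1 fell. In the xenografts 2 of 5 adipocyte markers rose (sum 11.4 to 66.9 and 351 to 739 CPM). The part of these cells in the members' levels was not tested.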

How the data were processed

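RNA-seq of 12 mouse samples was used, 1 library per mouse and 3 mice per group, with groups taken from the labels. The deposited values are whole counts of reads on each gene; the authors used Trim Galore for trimming, STAR 2.7.2b for alignment against mm10 and HTSeq for counting. SAMtools 1.9 is also named, and strand setting and overlap rule are not given in the sources used here. Reads not assigned to a gene (24.7% to 39.4% per library) were left out.

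Here the counts were tested with edgeR 4.0.16 in R 4.3.3 (TMM, filterByExpr, glmQLFit with robust estimation, glmQLFTest), each model on its own 6 libraries and the interaction and model contrasts on all 12. The biological coefficient of variation was 31.6% in livers and 28.7% in xenografts, so with at least 67 reads per member the spread between mice mostly exceeds counting error. The p-values weigh each difference against the spread between libraries, which edgeR draws toward that of genes at a similar level. With 1 library per mouse this spread holds both mice and library preparation. No pair of libraries in a group agreed within counting noise (chi-square 34.6 to 274 per degree of freedom). The SE is the log2 fold change divided by the square root of F. Isozyme ratios used CPM with a pseudocount of 0.5 and an exact permutation test in SciPy 1.17.1. Genes, coordinates and lengths came from GENCODE M21 (GRCm38) and promoter windows from RefSeq (GRCm38.p6). The edgeR step was run on simulated counts with less spread between libraries and larger changes than nearly all members had. That run checks the code and says nothing on how firm the calls are.

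The members, the other gene lists and the motifs were chosen with earlier results of these data known. Values of every mouse were given, by rule, for the members with the largest change of each branch in each model, the pairs with the smallest and largest change of ratio and the 3 smallest interaction p-values; those of Paics, Tk2 and Dctd and the values of Afmid were added after they were seen, as were those of the called genes of the other lists. The alternatives were RLE factors, library totals, no filter, at least 10 counts in every library, DESeq2 1.42.0, Rn45s left out, a covariate for resubmission, a joint fit of the 12 libraries, calls by adjusted p alone, a pseudocount of 5, and leaving out each library. The fit of the livers without the mark was added after seeing the data. Of the macrophage list, Adgre1 was not found under that symbol and was not used here.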

Additional observations from a re-analysis of the deposited data

Results flagged for a closer look

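In 19 members the diet difference was not the same in both models by the interaction term of edgeR's fit over all 12 libraries (adjusted p of at most 0.05, 3 mice per group), given as the log2 diet difference in xenografts minus that in livers. In purine synthesis it was 0.83 for Prps1, 1.22 for Prps2, 1.45 for Ppat, 1.61 for Gart, 1.01 for Pfas, 1.72 for Adsl, 1.63 for Atic, 1.53 for Impdh1 and 1.66 for Impdh2. In pyrimidine synthesis and salvage it was 2.30 for Cad, 1.34 for Dhodh, 1.39 for Umps, 1.49 for Ctps and 1.73 for Uck2. Among the genes of deoxynucleotide supply it was 1.92 for Rrm1, 2.88 for Rrm2, 1.67 for Tyms and 1.52 for Dck. The value for Tk2 was -1.09, the only one below 0. The 12 proliferation markers all differed in the direction of the 18 (median 2.74), and their part in the members' differences was not tested.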

How the results depend on the processing

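Members called lower in the livers numbered 0 to 18 when each library was left out, and 0 in the 4 livers without the resubmission mark, a fit chosen after seeing the data; members called higher numbered 0 to 1, and 1 with no threshold on the fold change. DESeq2 and the joint fit of the 12 libraries each called 19 lower in the livers. For the interaction, members called above 0 numbered 11 to 21 and members called below 0 numbered 0 to 1 when each library was left out, and Tk2 was lost (0) with library totals and with no filter on low counts. For xenografts against livers on the control diet, 22 members were lower with no threshold on the fold change. On the No-Trp diet 1 was lower and 12 higher with library totals, 9 higher with no threshold, and 2 to 7 higher when each library was left out. The cause was not tested. Library totals moved the median of all genes to -0.30 in the livers, 0.11 in the xenografts, 0.41 in the interaction, 0.17 between the models under the control diet and 0.68 under No-Trp. The liver median of the members was then -1.30.

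Sign changes came in members near 0. With library totals the log2 values were -0.17 for Rrm2b and -0.29 for Tk1 in the livers, 0.08 for Pfas and 0.07 for Uck1 in the xenografts, and 0.17 for Paics and 0.20 for Nme2 in the interaction. Tk1 in the livers was -0.00 with at least 10 counts in every library and -0.01 in one fit over all libraries. With resubmission as a covariate the xenograft values were -0.01 for Prps1, -0.02 for Prps2, 0.25 for Pfas, 0.05 for Impdh1, -0.02 for Umps, -0.09 for Tyms, -0.32 for Hprt and 0.30 for Ada, and the interaction values -0.09 for Uck1 and 0.17 for Nme2. The interaction was -0.00 for Ctps2 with RLE factors and with DESeq2, and for Uck1 -0.08 with both and -0.02 with Rn45s left out. Leaving out each library gave, in the livers, -0.25 to 0.04 for Paics, -0.08 to 0.05 for Uck1, -0.10 to 0.07 for Tk1 and -0.38 to 0.25 for Nme2. In the xenografts it gave -0.15 to 0.12 for Pfas, -0.07 to 0.14 for Adss, -0.12 to 0.01 for Uck1, -0.05 to 0.34 for Tyms, -0.01 to 0.24 for Dctd, -0.12 to 0.30 for Dck, -0.16 to 0.22 for Hprt and -0.49 to 0.14 for Ada. In the interaction it gave -0.23 to 0.34 for Ctps2, -0.07 to 0.07 for Uck1, -0.11 to 0.46 for Nme1 and -0.47 to 0.17 for Nme2. With a pseudocount of 5 every isozyme difference stayed within 1 SD of its value.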
